A study of Mus musculus with 12 samples.

Results

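Imprinted genes are expressed mainly from the copy inherited from a single parent. The parental copies are told apart by DNA methylation laid down in the germ line and copied at each cell division. Many imprinted genes act on growth before birth and are kept low in adult organs. The genes described here in normal colon were listed by gene symbol, with no threshold on a measured value but with earlier results of these data known, as H19, Igf2, Igf2r, Cdkn1c, Peg3, Mest, Dlk1, Plagl1, Grb10 and Ndn. Of these 10 genes, 9 had a named probe on the array, with 14 probes in all among 25697, and H19 was not analysed here. A probe counted as well measured when its detection p, the chance of so bright a signal among negative control beads, was under 0.05 on at least 4 of 12 arrays. Igf2, Igf2r, Cdkn1c, Grb10 and Ndn passed with 6 probes between them, and Peg3, Mest, Dlk1 and Plagl1 did not.

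All mice carried ApcMin, a truncating mutation of the tumour suppressor Apc that gives intestinal polyps, and had been fed for 11 weeks a diet either deficient or sufficient in methyl donors, the nutrients that feed S-adenosylmethionine and through it DNA methylation. RNA came from their normal colon. The sufficient diet, which is the control, has 4 arrays labelled as 2 samples from each of 2 animals (numbered 1 and 3), and the deficient diet has 8 arrays from 4 animals (numbered 1 to 4). The labels give no age, sex or background strain, and they do not say which part of the colon wall or of its length was taken. Neither DNA methylation nor the expression of each parental copy was measured, so the values below are total RNA of each gene.

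Array sex and animal label disagreed, which bears on every result. By Y-linked genes and Xist, the 2 arrays of both sufficient animals and of deficient animals 3 and 4 were 1 male and 1 female, which leaves 4 labelled animals that cannot each be a single mouse. Each difference was therefore tested with the labelled animals as replicates (2 against 4) and again with the arrays of those 4 joined by sex within their diet. The second way gives 6 sex-matched pairs, which are a sufficient male and a sufficient female pair, deficient animals 1 and 2 (both male), a deficient female pair and a rejoined deficient male pair (sample 1 of animal 3 and sample 2 of animal 4). The labels do not say that the joined arrays come from a single mouse. The limma consensus correlation between the 2 arrays of a labelled animal was -0.23, and that between the 2 arrays of a sex-matched pair 0.33. SDs and SEs with labelled animals average over different mice and can understate the spread between mice. Median signals before normalization ran from 59.4 to 71.5 per array, 12609 to 13241 probes were detected, and any 2 arrays correlated at 0.952 to 0.993. Values are normalised log2 signals, a difference is deficient minus sufficient, and levels of different probes are not compared. In RNA of a tissue with many cell types, fewer cells of a type and less RNA per cell cannot be told apart.

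Igf2 encodes insulin-like growth factor 2, a fetal growth factor expressed from the paternal copy. It was the only detected member past the threshold, an adjusted p under 0.05 over all 13497 probes tested by limma, and only with the labelled animals. Its log2 signal was 8.76 and 9.04 in the samples of sufficient animal 1, and 8.98 and 8.70 in those of sufficient animal 3. On the deficient diet it was 9.41 and 9.58 in animal 1, 9.42 and 9.53 in animal 2, 8.61 and 9.90 in animal 3, and 9.69 and 8.82 in animal 4. Thus 6 of the 8 deficient arrays lay above all 4 sufficient ones, and the other 2, the rejoined male pair, lay within or below the sufficient range. The labelled animals averaged 8.87 ± 0.04 (SD, n = 2) on the sufficient diet and 9.37 ± 0.13 (SD, n = 4) on the deficient diet, without overlap. The difference of 0.50 is a 1.41-fold higher signal (SE 0.10, adjusted p = 0.0218 with limma). Joined by sex, the same difference had an SE of 0.28 and an adjusted p of 0.430. Labelled animals 3 and 4 each average a high female array with a low male one, to 9.26 and 9.25. Joined by sex, the same 4 arrays average 9.80 (female pair) and 8.72 (male pair).

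Igf2r encodes the receptor that carries Igf2 to lysosomes for breakdown and so limits it; in the mouse it is expressed from the maternal copy. Neither of its probes passed the test between the diets. The brighter probe read 8.95, 8.64, 8.56 and 8.97 on the sufficient arrays and 8.55 to 8.94 (median 8.81) on the deficient ones, which is inside the sufficient range apart from a single array at its lower edge. Its difference was -0.01 (SE 0.08, adjusted p = 0.934; with sex-matched pairs SE 0.13 and adjusted p = 0.972). The second probe gave -0.09 (adjusted p = 0.540, and 0.804 with the pairs). On the sufficient diet both male arrays read higher with the brighter probe (8.95 and 8.97) than both female ones (8.64 and 8.56). On the deficient diet the sexes overlapped, at 8.55 to 8.94 in males and 8.81 and 8.76 in females.

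**Figure D1:**
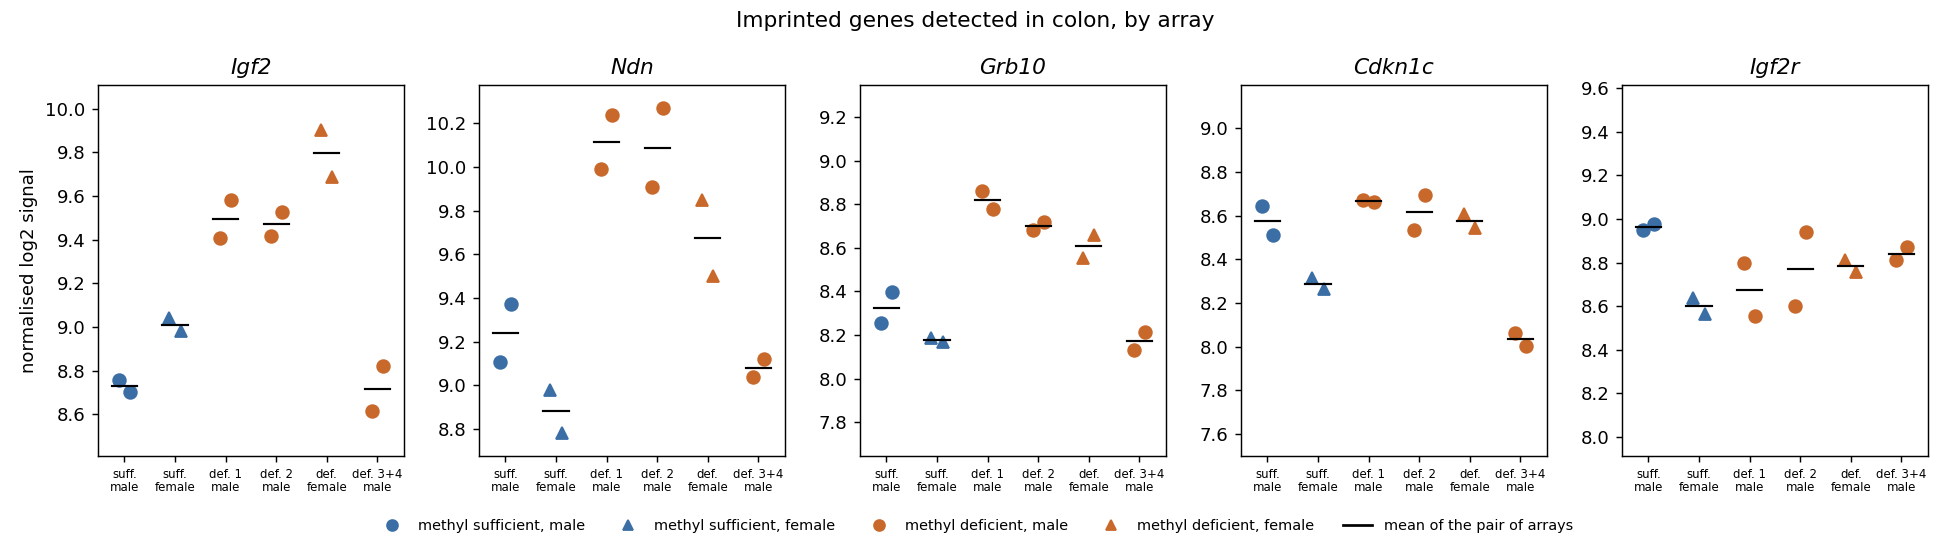
Normalised log2 signal of the 5 detected members on each of the 12 arrays, grouped by the 6 sex-matched pairs; each point is 1 array, circles are male and triangles female, blue is methyl sufficient and orange methyl deficient, the black bar is the mean of the pair, and every panel spans the same log2 range. In Igf2, Ndn, Grb10 and Cdkn1c the rejoined deficient male pair (def. 3+4 male) lies below the other 6 deficient arrays, as at 8.61 to 8.82 against 9.41 to 9.90 for Igf2.

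Ndn encodes necdin, a MAGE family protein of neurons and other cells that have left the cell cycle, expressed from the paternal copy. It had the largest diet difference of the 5 detected members but did not pass the test. The sufficient arrays read 9.10 and 8.98 in animal 1, and 8.78 and 9.37 in animal 3. The deficient arrays read 9.99 and 10.24 in animal 1, 9.91 and 10.27 in animal 2, 9.04 and 9.85 in animal 3, and 9.50 and 9.12 in animal 4. Again the rejoined male pair (9.04 and 9.12) fell within the sufficient range, while the other 6 deficient arrays lay above it. The labelled animals averaged 9.06 ± 0.02 (SD, n = 2) and 9.74 ± 0.42 (SD, n = 4), a difference of 0.68 or 1.60-fold (SE 0.24, adjusted p = 0.104 with limma; pairs, SE 0.29 and adjusted p = 0.337).

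Grb10 encodes an adaptor that binds the insulin and IGF receptors and restrains their signalling; in the mouse it is expressed from the maternal copy in most tissues and from the paternal copy in neurons. It read 8.26 and 8.18 in sufficient animal 1 and 8.17 and 8.40 in sufficient animal 3. On the deficient diet it read 8.86 and 8.78 in animal 1, 8.68 and 8.72 in animal 2, 8.13 and 8.55 in animal 3, and 8.66 and 8.21 in animal 4. The same 6 arrays were above the sufficient range, and the same 2 lay within or just below it. Labelled animals averaged 8.25 ± 0.04 (SD, n = 2) and 8.57 ± 0.22 (SD, n = 4), and the difference of 0.32 or 1.25-fold did not pass (SE 0.14, adjusted p = 0.175 with limma; pairs, SE 0.19 and adjusted p = 0.443).

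Cdkn1c encodes p57Kip2, an inhibitor of cyclin-dependent kinases that stops the cell cycle, expressed from the maternal copy and lying in the same stretch of chromosome 7 as Igf2. It read 8.65 and 8.31 in sufficient animal 1, 8.26 and 8.51 in sufficient animal 3, 8.67 and 8.66 in deficient animal 1, 8.54 and 8.70 in deficient animal 2, 8.06 and 8.61 in deficient animal 3, and 8.55 and 8.003 in deficient animal 4. The diets overlapped, but 3 deficient arrays, both of animal 1 and sample 2 of animal 2, lay above every sufficient array, and the rejoined male pair lay below every other array. The difference was 0.04 (SE 0.13, adjusted p = 0.866 with limma; pairs, SE 0.20 and adjusted p = 0.940).

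The start sites of the 3 members whose labelled animals did not overlap are shown because CG, the dinucleotide that DNA methyltransferases methylate in mammals, is very unevenly spread among them. The windows run from 250 bases before to 50 after each start and come from RefSeq on mouse build GRCm38.p6, in which 8 of the 10 members had a window. Capitals mark each CG, which reads the same on both strands. Of the 4 Igf2 starts, those with the most and the fewest CG are given, and for Grb10 the start with the most.
Igf2, chr7:142658755-142659054, minus strand: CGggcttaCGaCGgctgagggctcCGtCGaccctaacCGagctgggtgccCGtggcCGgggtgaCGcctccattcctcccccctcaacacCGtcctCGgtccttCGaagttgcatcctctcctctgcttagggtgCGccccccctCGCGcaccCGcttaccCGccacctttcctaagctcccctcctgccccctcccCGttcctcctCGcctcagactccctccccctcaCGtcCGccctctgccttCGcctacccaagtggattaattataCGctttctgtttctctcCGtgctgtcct
Igf2, chr7:142666767-142667066, minus strand: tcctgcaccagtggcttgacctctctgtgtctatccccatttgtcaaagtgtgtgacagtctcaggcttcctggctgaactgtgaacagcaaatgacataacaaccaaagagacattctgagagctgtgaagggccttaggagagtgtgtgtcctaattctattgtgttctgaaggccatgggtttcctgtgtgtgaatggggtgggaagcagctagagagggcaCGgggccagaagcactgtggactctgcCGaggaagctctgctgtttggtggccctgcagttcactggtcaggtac
Grb10, chr11:12037371-12037670, minus strand: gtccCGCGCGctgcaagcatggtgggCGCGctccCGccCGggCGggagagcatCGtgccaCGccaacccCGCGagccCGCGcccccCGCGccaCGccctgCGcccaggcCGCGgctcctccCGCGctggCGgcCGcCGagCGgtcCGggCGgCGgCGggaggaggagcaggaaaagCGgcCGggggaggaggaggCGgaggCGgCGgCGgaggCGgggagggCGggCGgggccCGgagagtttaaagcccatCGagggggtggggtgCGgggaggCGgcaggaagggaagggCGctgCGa
Ndn, chr7:62348027-62348326, plus strand: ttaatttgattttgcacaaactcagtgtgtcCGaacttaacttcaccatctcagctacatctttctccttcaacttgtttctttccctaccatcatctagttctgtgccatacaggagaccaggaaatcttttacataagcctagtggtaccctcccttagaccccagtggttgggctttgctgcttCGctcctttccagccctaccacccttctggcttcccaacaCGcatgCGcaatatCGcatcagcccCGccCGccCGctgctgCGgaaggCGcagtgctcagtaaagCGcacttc
These hold 24, 2, 45 and 11 CG. Of 32851 such windows over the genome, 19.98%, 85.9%, 1.93% and 41.4% hold as many or more, the median window holds 7, and 94.6% hold at least 1. The other Igf2 starts hold 7 and 14, and the other Grb10 start holds 9. Which start each probe reads, and whether these CG were methylated, was not analysed here.

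The 4 members that failed the detection rule are genes of embryonic growth. Mest, a paternally expressed hydrolase of mesoderm, came nearest to detection. The third of its 3 probes had a detection p of 0.0226 and 0.0338 on the arrays of deficient animal 2, of 0.0689 and 0.0514 on those of deficient animal 1, and of at least 0.109 on the other 8. The first probe was detected on 1 array, sample 1 of deficient animal 2, at a detection level of 0.0489, and the second on 0. Peg3, a paternally expressed zinc finger protein, was detected on 0 arrays with a lowest p of 0.0965, on a deficient female array. Dlk1, a membrane-bound Notch family ligand that holds back fat cell formation, was detected on 0 arrays with a lowest p of 0.110. Plagl1, a paternally expressed zinc finger factor that restrains proliferation, had 3 probes detected on 0 arrays, with no p under 0.599. These signals were not well above background, so no diet difference is given for them; the lowest detected signal of an array was 5.16 to 5.29 on the normalised log2 scale, and the brightest Mest reading was 5.49.

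**Figure D2:**
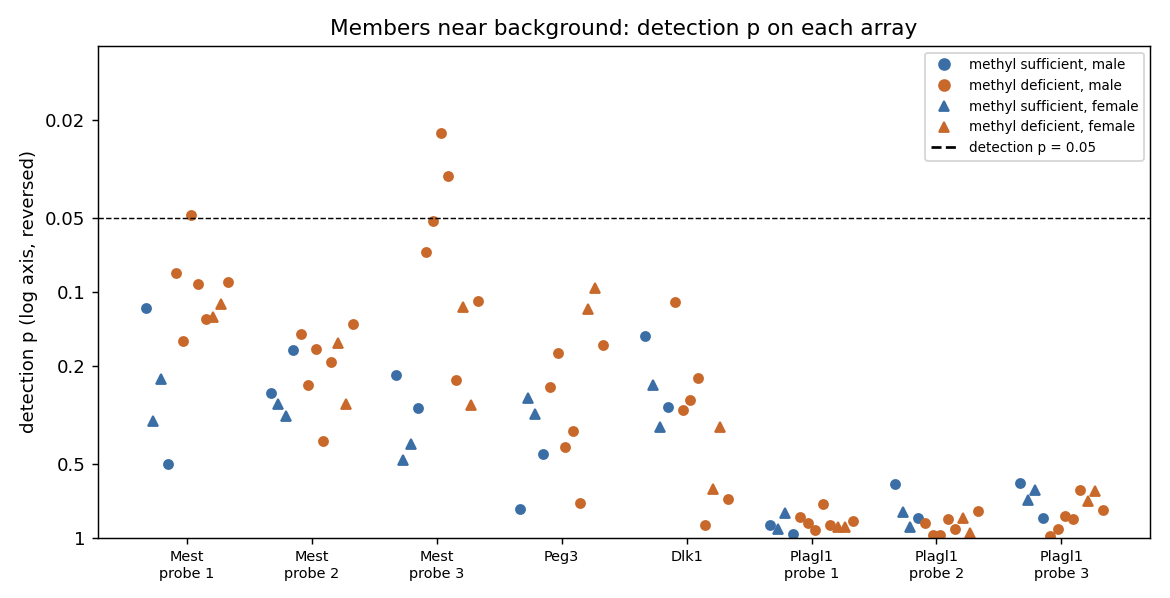
Detection p of each probe of Mest, Peg3, Dlk1 and Plagl1 on each of the 12 arrays (reversed log axis, so brighter signals are higher; the dashed line is the detection threshold of 0.05; points of a probe follow array order from left to right, colours and shapes as the legend gives). Only 3 readings lie above the line, all Mest in deficient animal 2, and the Plagl1 probes stay at 0.599 or more.

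Counted over the 5 detected members, 1 was higher on the deficient diet and 0 lower with the labelled animals, where 6% of 9509 genes with a detected probe were higher and 5.15% lower. Joined by sex, the count was 0, against 0.284% of genes in either direction. At an unadjusted p under 0.05 by limma, 2 members passed with labelled animals and 0 with pairs, where 28.7% and 14.99% of all probes did. For 3 members the labelled animals fell without overlap between the diets (Igf2, Grb10 and Ndn), as they did for 42.8% of all genes. No member had all deficient arrays on one side of all sufficient ones (6.66% of genes did), or all deficient pairs (24.8% did). The members' median difference was 0.32 and that of all genes 0.02.

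The 5 detected members fell into 2 patterns over the 12 arrays. Ndn and Grb10 followed each other most closely, at a Pearson r of 0.93, and Igf2 and Cdkn1c correlated with each of those 2 and with one another at 0.63 to 0.79. Igf2r correlated with the other 4 at -0.29 to 0.09. With the diet means removed, Cdkn1c correlated at 0.91 with Grb10 and 0.89 with Ndn, and Igf2 at 0.68 with Grb10. These 12 points share 6 pairs and 2 diets and are given as a description. The rejoined deficient male pair stood apart, its mean lying below that of the other 6 deficient arrays by 0.87 for Igf2, 0.88 for Ndn, 0.54 for Grb10 and 0.59 for Cdkn1c, with no overlap in any of the 4. For Igf2r it lay 0.10 above, inside the range of the others. The share of all genes without overlap there was not counted, so this cannot be called particular to the members. Among the listed markers, Lum, Dcn, Des and Stmn2 were also without overlap in that pair, while Krt8 and Cdh1 overlapped. Without that pair the difference between the diets was 0.72 for Igf2 (adjusted p = 0.0662), 0.90 for Ndn (0.0584) and 0.46 for Grb10 (0.110) by limma. Over the omission of each of the 6 pairs in turn, the difference ran from 0.36 to 0.72 for Igf2, from 0.50 to 0.90 for Ndn and from 0.24 to 0.46 for Grb10, with none of the 3 past the threshold.

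Genes whose array pattern was most like each member's, by Pearson r over the 12 arrays among all kept genes, were as follows. For Igf2 they were Lum (r = 0.96), which encodes the collagen-binding proteoglycan lumican, then Epdr1 (0.96) and Pcdhb22 (0.95). For Ndn they were Dtna (0.98), which encodes dystrobrevin alpha, Cav1 (0.97), which encodes the caveola protein caveolin 1, and Tafa5 (0.97). Those of Grb10 were Rras (0.98), Pdlim3 (0.97), a protein of the muscle Z disc, and Popdc2 (0.97). Cdkn1c was followed by B9d1 (0.98), Rsph9 (0.94) and the muscle creatine kinase gene Ckm (0.94), which was not detected in the rejoined male pair. Igf2r had Zfp738 (0.94), Ccn1 (0.91) and Ipp (0.88).

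Among marker lists of the cells of the colon wall, the fibroblast, neuronal, smooth muscle and endothelial lists were, like those 4 members, lowest among the deficient pairs in the rejoined male pair, and the epithelial, adipocyte and skeletal muscle lists were not. Over all genes, 6% were higher and 5.15% lower with the labelled animals, and 0.284% passed in either direction with pairs. Of 15 detected fibroblast and matrix markers, 8 were higher with the labelled animals (1 with pairs), with a median difference of 0.47. Their mean log2 signal was 8.30 to 8.89 on sufficient arrays, 8.88 to 8.93 in the rejoined deficient male pair and 9.46 to 9.62 on the other 6 deficient arrays. Of 6 detected markers of enteric neurons and glia, 5 were higher (0 with pairs; median 0.66), at 6.35 to 6.53, 6.73 and 7.17 to 7.39 in those 3 sets of arrays; the neuronal Snap25 and the glial S100b and Gfap were not detected. Of 8 smooth muscle markers 0 passed in either fit (median 0.35), at 10.95 to 11.12, 10.71 to 10.81 and 11.24 to 11.71, with Synpo2 not detected. Of 9 epithelial markers 0 passed (median -0.18), with levels of 11.07 to 11.17 on sufficient and 10.79 to 11.11 on deficient arrays, and the rejoined male pair (11.06) lay between deficient animals 1 (10.87) and 2 (11.09). Endothelial markers had a median of 0.02 with 1 of 6 higher, at 7.34 to 7.51, 7.21 to 7.33 and 7.40 to 7.73 in the 3 sets, Cdh5 and Kdr not being detected. Adipocyte markers had a median of -0.39 with 0 of 4 past the threshold, their lowest deficient level in animal 1 (6.11, against 6.60 in the rejoined male pair), Plin1, Fabp4 and Retn not being detected. The 3 detected skeletal muscle markers, Ckm among them, had a median of 0.48 with 0 past the threshold. Their mean level was highest among deficient pairs in the rejoined male pair (6.76). There Acta1 averaged 9.67 against 7.28 on the other 6 deficient arrays, while Ckm averaged 4.99 against 6.68. The Ckm readings of that pair, 4.94 and 5.04, lay under the lowest detected signals of their arrays (5.29 and 5.23). Myh1, Myh4, Tnnt3 and Mylpf were not detected. The part of these cell types in the members' differences was not tested.

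**Figure D3:**
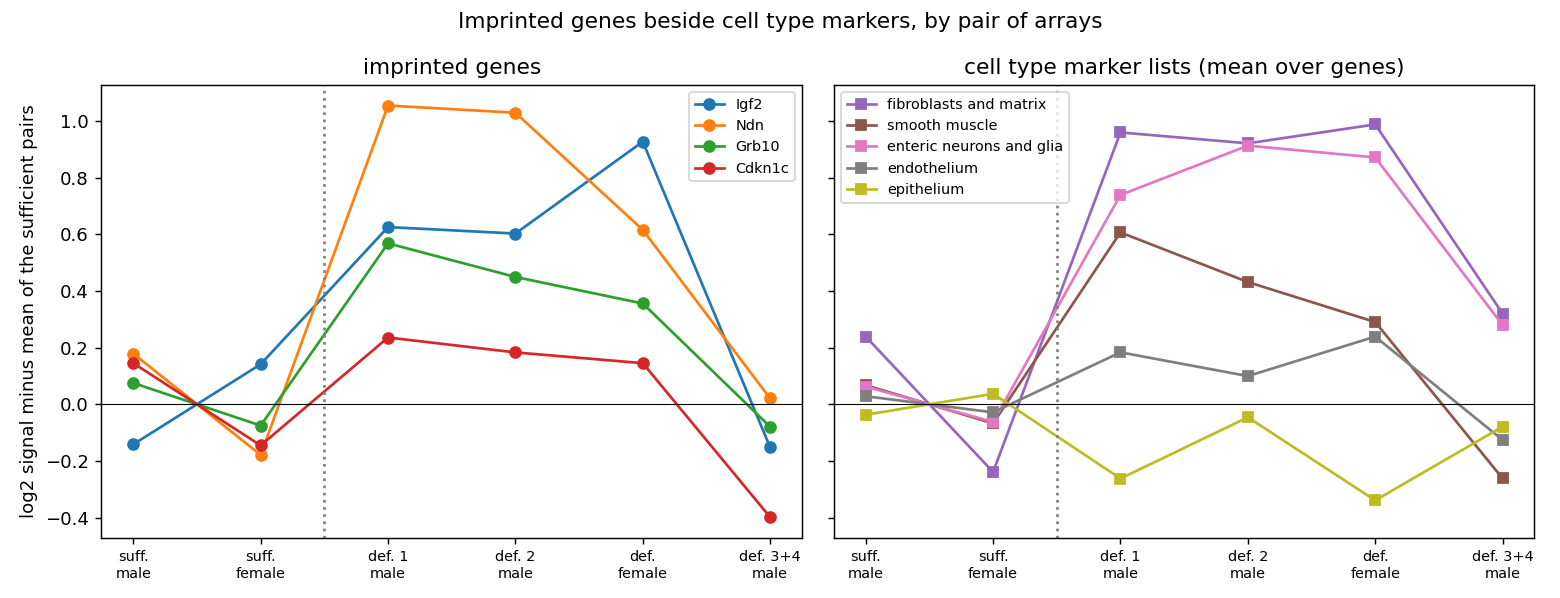
Mean log2 signal of each pair of arrays minus the mean of the 2 sufficient pairs, for Igf2, Ndn, Grb10 and Cdkn1c (left) and for the mean of 5 marker lists (right); the dotted line divides sufficient from deficient pairs, and the connecting lines imply no order. The 4 imprinted genes and the fibroblast, smooth muscle, neuronal and endothelial lists are lowest among deficient pairs in the rejoined male pair (def. 3+4 male), and the epithelial list is lowest in the deficient female pair. Igf2r and the adipocyte and skeletal muscle lists are not drawn.

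Within each sex the mean differences of Igf2, Ndn and Grb10 stayed above 0. Between male pairs alone (1 sufficient, 3 deficient) they were 0.50, 0.52 and 0.24, and between female pairs (1 each, with no replicate) 0.79, 0.79 and 0.43. The rejoined deficient male pair lay below the sufficient male pair for all 3. The pair means were 8.72 against 8.73 for Igf2, 9.08 against 9.24 for Ndn and 8.17 against 8.33 for Grb10. Igf2r gave -0.20 in males and 0.18 in females, and Cdkn1c -0.14 and 0.29. These Igf2r values are of the brighter probe, and the second gave -0.38 in males and 0.27 in females. The male differences rest on 1 sufficient pair, so only their sizes are given here. A diet-by-sex term was fitted after the values were seen. It rests on 1 sufficient male pair and 1 female pair per diet, so no p-value of it is given. Whether the diet difference of any member depends on sex cannot be told from these arrays.

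Among the wider set of mouse imprinted genes, 52 of 66 listed genes including the members had a named probe and 29 were detected. Of these, 5 passed as higher and 1 as lower with labelled animals (6% and 5.15% of all genes), and 0 in either direction with pairs (0.284%). Their median difference was 0.07, with 19 positive and 10 negative. Besides Igf2, the higher genes were Ascl2, Atp10a, Ppp1r9a and Nap1l5, and the lower gene was Ddc. They are not split by parental copy, since several are imprinted in some tissues or transcripts only. None of these 6 calls held without sufficient animal 1, nor without sufficient animal 3.

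Around Igf2 and Cdkn1c on chromosome 7, 10 of 14 genes were detected, in the order Igf2, Ascl2, Tspan32, Cd81, Tssc4, Kcnq1, Cdkn1c, Slc22a18, Phlda2 and Nap1l4 in the RefSeq table of GRCm38.p6. Their differences ran from -0.997 to 0.67, with 7 positive and 3 negative. With labelled animals 2 passed the threshold as higher, where 6% of all genes did. Ascl2, the transcription factor of intestinal stem cells, rose with labelled animals. It read 5.59, 5.12, 5.46 and 5.45 on the sufficient arrays, detected on 3 of the 4, and 5.70 to 6.57 (median 5.97) on the deficient ones, all above the sufficient range. Its difference was 0.67 (SE 0.15, adjusted p = 0.0279 with limma, and 0.186 with pairs). Among the deficient pairs its mean was highest in the rejoined male pair (6.57 and 6.32), where its neighbour Igf2 was lowest. The arrays were not set apart for Ascl2, as the female array of deficient animal 4 also read 6.32. Phlda2, a small pleckstrin-homology protein that limits placental growth, read 7.53 to 7.98 on sufficient and 5.67 to 7.62 (median 7.02) on deficient arrays, with its lowest readings, 5.67 and 5.79, in deficient animal 1. Its difference of -0.997 (SE 0.41) did not pass, at an adjusted p of 0.153 and 0.370 with pairs, and was -0.636 without deficient animal 1 (adjusted p = 0.0530).

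In the Ndn cluster of chromosome 7, the counterpart of the human Prader-Willi and Angelman region, 5 genes were detected. Atp10a, a phospholipid flippase, rose with labelled animals by 0.70 (SE 0.10, adjusted p = 0.00687; pairs 0.205). It read 6.51, 5.55, 5.68 and 6.22 on the sufficient arrays, the males being the higher, and 6.44 to 6.97 on the deficient ones. Its difference was 0.32 without the sufficient female pair, 1.08 without the sufficient male pair and 0.33 between male pairs alone. Snrpn, a spliceosome protein gene expressed like Ndn from the paternal copy, differed by 0.46 (adjusted p = 0.0641; pairs 0.238). Ube3a, the ubiquitin ligase of this cluster, differed by -0.08 and the ring finger gene Mkrn3 by 0.06.

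Ddc, next to Grb10 on chromosome 11, encodes the aromatic amino acid decarboxylase that makes serotonin and dopamine. It fell with labelled animals while Grb10 read higher. Its signals of 9.55, 9.85, 9.99 and 9.71 on the sufficient arrays all lay above the deficient 8.81 to 9.49 (median 9.13), and the difference was -0.62 (SE 0.12, adjusted p = 0.0170; pairs 0.2001). Ppp1r9a, which encodes the actin-binding neurabin of the Peg10 cluster on chromosome 6, read 9.08 to 9.19 on the sufficient and 9.31 to 9.78 on the deficient arrays, a rise of 0.47 (SE 0.11, adjusted p = 0.0376; pairs 0.193). In that cluster Peg10, Sgce, Calcr and Asb4 were not detected. Nap1l5, a nucleosome assembly family member, rose by 0.68 (SE 0.12, adjusted p = 0.0135; pairs 0.122); the sufficient arrays, 3 of 4 detected, read 5.20 to 6.05 and the deficient ones 6.01 to 6.78. No gene was detected among those with a named probe in the Peg3 cluster (3 genes) or the Dlk1 cluster (3 genes).

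**Figure D4:**
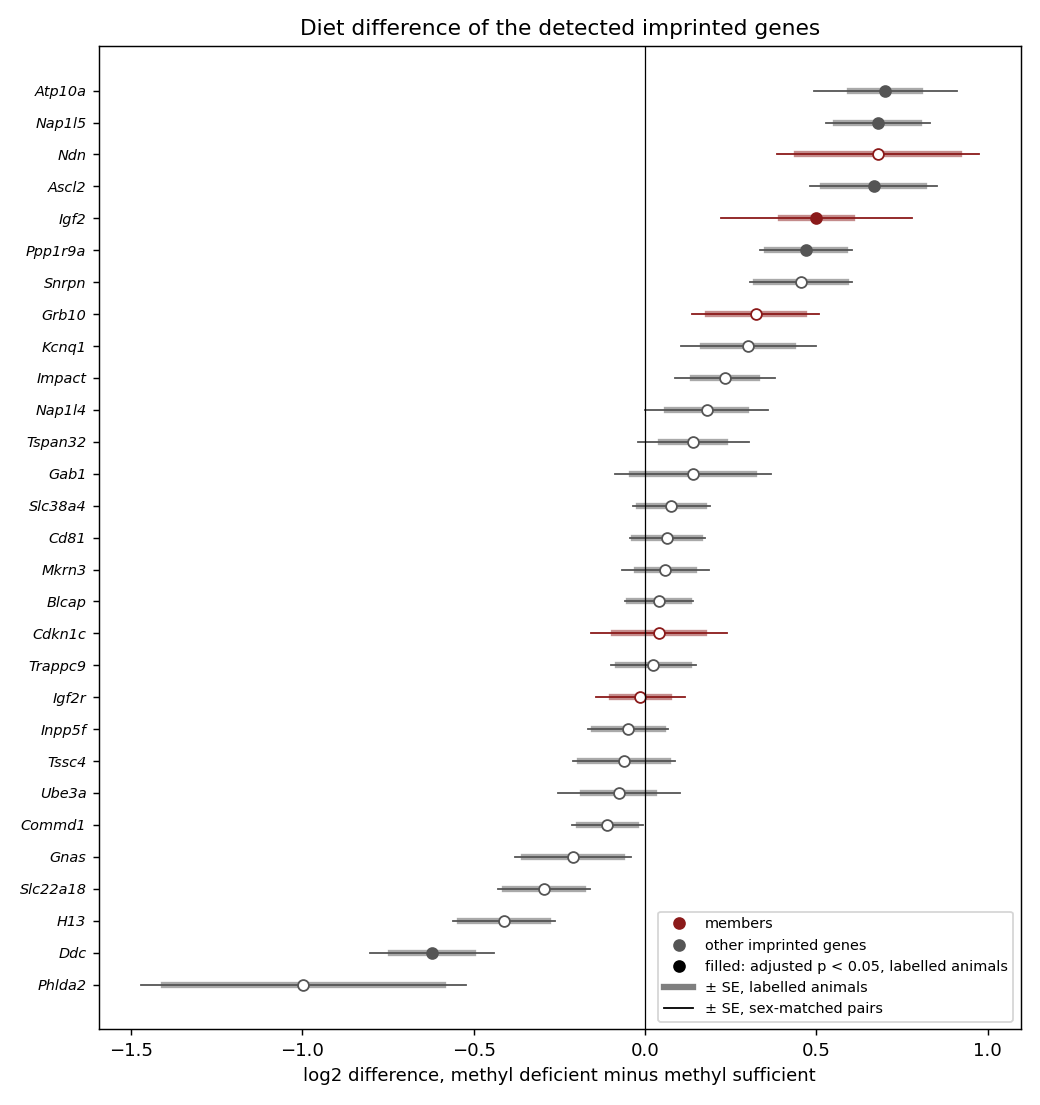
Log2 difference between methyl deficient and methyl sufficient colon for the 29 detected imprinted genes, with 1 probe per gene; the thick bar is ± SE with labelled animals and the thin bar ± SE with sex-matched pairs, red marks the 5 members and filled points have an adjusted p under 0.05 with labelled animals. The differences spread from -0.997 for Phlda2 to 0.70 for Atp10a, and Igf2 is the only filled member.

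The partners of Igf2 in IGF signalling were read from a list of 15 genes, of which 11 were detected (median difference 0.06). With labelled animals 2 were higher and 1 lower (6% and 5.15% of all genes), and with pairs 0 passed (0.284%). Igf1r, the receptor through which Igf2 signals, rose by 0.39 (SE 0.09, adjusted p = 0.0288; pairs 0.357). It read 5.31 to 5.48 on sufficient arrays and 5.40 to 6.20 (median 5.81) on deficient ones. Without background correction or with an offset of 50 the difference was 0.21 and 0.23 and did not pass (adjusted p = 0.0607 and 0.0539), nor did it without any single labelled animal other than deficient animal 2. Its lowest deficient readings were 5.40 in animal 2 sample 2, and 5.42 and 5.52 in the rejoined male pair. Igfals, the subunit that stabilises circulating IGF complexes, fell by 0.44 (SE 0.10, adjusted p = 0.0288; pairs 0.224), with sufficient arrays at 5.95 to 6.24 and deficient ones at 5.32 to 5.93, without overlap. Igfbp2, an IGF-binding protein, passed with labelled animals (difference 0.74, adjusted p = 0.0458; pairs 0.508), but its sufficient arrays were 6.95 and 7.12 in the males and 5.13 and 4.99, not detected, in the females. Its deficient arrays read 6.30 to 7.28, and the male pairs alone gave -0.09. Its difference was 0.44 without background correction and 0.46 with an offset of 50 and did not pass in either (adjusted p = 0.0820 and 0.0858). Igfbp6, which binds Igf2 in preference to Igf1, read 6.09 to 6.79 on sufficient arrays, 5.88 and 6.25 in the rejoined male pair and 7.30 to 7.97 on the other 6 deficient arrays, a difference of 0.79 that did not pass (adjusted p = 0.111; pairs 0.473). Irs2, which relays the signal of the insulin and IGF receptors, differed by -0.56 (adjusted p = 0.133; pairs 0.435).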

How the data were processed

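Total RNA of 12 colon samples was hybridised as biotinylated cRNA to Illumina bead arrays, per the labels' protocols. The deposited scanner table holds for each array an intensity per probe on a linear scale, not normalized as far as its values show, along with a detection p-value (column names in the file headers). The deposited series matrix holds the authors' processed log2 values, centred on each probe's median; its columns matched their own arrays at r = 0.957 to 0.979 and other arrays at no more than 0.737, with column medians from -0.15 to 0.15 (0.0035, 0.15, 0.0031, -0.12, -0.0031, -0.10, 0.03, 0.0097, -0.15, 0.13, -0.15 and -0.14 in the order of the labels). Direction and centring are thus known, and the normalization before centring is not. The software the authors used and the genome build are not given in the sources used here.

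Background correction and quantile normalization used neqc (limma 3.58.1, R 4.3.3, offset 16, negative controls inferred from detection p-values). Probes with detection p under 0.05 on at least 4 of 12 arrays were kept, 13497 of 25697 (52.5%). Symbols came from the platform annotation (23978 probes with 1 symbol, 0 with several, 1719 unnamed here), and neighbouring genes and promoters from RefSeq GRCm38.p6. Means per labelled animal were fitted with lmFit and eBayes, with two-sided p-values adjusted by Benjamini-Hochberg across every kept probe and called at 0.05. An exact permutation test of 2 against 4 animals cannot go below p = 0.0667. The number of animals limits the precision. Where a gene has several kept probes, that with the highest mean is used. Every member is described. Of the other listed genes, those past the threshold are named, together with the 3 with the largest absolute log2 difference of each list and the 3 genes most correlated with each member, and Ube3a, Mkrn3 and Dnmt1 were added after their values were seen. The members and lists were chosen with earlier results of these data known, and the sex-matched pairs, the grouping of neighbours and the diet-by-sex term after values were seen. Alternatives covered normalization, filter, unit of replication, sex, replicate number, variance model, probe and each animal or pair left out.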

Additional observations from a re-analysis of the deposited data

Results flagged for a closer look

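Among 42 groups of 4 or 8 arrays examined for a single array far from the rest, 1 held such an array, where chance alone flags about 1 group in 20. Ctcf, the insulator protein that binds the unmethylated control region between Igf2 and H19, read 8.05 on sample 2 of sufficient animal 3, and the other sufficient arrays read 8.22 to 8.26. The gap to the nearest array was 0.834 of the range of the group. The Ctcf difference between the diets was 0.22 (adjusted p = 0.158 with limma).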

How the results depend on the processing

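The count of probes past the threshold, 1460 with labelled animals, was 38 with sex-matched pairs, 522 with the pair as a random block, 7 with sex as a covariate and 0 in male pairs alone (limma, 982 at an unadjusted p under 0.05). With the labelled animal number as a replicate block it was 638. In that fit 0 members passed and Igf2 differed by 0.51 (adjusted p = 0.0678 with limma). Same-numbered animals deviated together at -0.06 and -0.05. With only 2 sufficient animals the deviations mirror each other, so these values cannot tell whether same-numbered animals share a batch. Leaving out a labelled animal or a pair gave 0 to 2060 probes, with 98 and 87 without sufficient animals 1 and 3. Members past the threshold fell from 1 to 0 with pairs, the pair as a random block, sex as a covariate, male pairs alone and the replicate block, and were 0 to 1 over the omissions, being 0 without either sufficient animal (Igf2 adjusted p = 0.150 and 0.196). With the labelled animal as a random block Ndn passed (0.0385) and Igf2 did not (0.0552). Igf2 kept a positive difference, 0.36 to 0.72, under every alternative run. Differences near 0 changed sign: Igf2r ran from -0.19 to 0.17 and Cdkn1c from -0.10 to 0.19 over the omissions, and Cdkn1c was -0.14 in male pairs alone. Igfbp2 was -0.0895 in male pairs and -0.24 to 1.73 over the omissions, and a second H13 probe gave 0.35. Dim genes differed less without background correction or with an offset of 50: Ascl2 0.38 and 0.41, Nap1l5 0.40 and 0.44, Igfals -0.25 and -0.28, and Atp10a 0.44 without correction. The causes were not tested beyond what each alternative leaves out. Of the alternative values for members, 106 kept direction and call, 14 lost and 1 gained the call, and 10 changed sign. A chip block was not run because the headers name no chip. With 2 and 4 animals and signals near background for 4 members, small differences could not be resolved.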

Other observations

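Factors that set or keep the methylation of imprinted regions were read from a list of 16 genes, of which 13 were detected. Mbd3, a subunit of the NuRD deacetylase complex, fell with labelled animals by 0.34 on the log2 scale (SE 0.08, adjusted p = 0.0416 with limma; pairs 0.226); the sufficient arrays read 7.63 to 7.96 and the deficient ones 7.21 to 7.74. No other listed factor passed, and 5.15% of all genes were lower with labelled animals. The maintenance methyltransferase Dnmt1 differed by -0.05 (adjusted p = 0.885) and the de novo methyltransferase Dnmt3b by 0.20 (adjusted p = 0.208). The median difference of the list was -0.05.

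H13, an intramembrane protease gene that produces different transcripts from its parental copies in the mouse, had 3 kept probes that disagreed. Their differences were -0.41, -0.46 and 0.35 (adjusted p = 0.0800, 0.0566 and 0.0881 with limma). For each probe the diets were separate over the labelled animals, as they were for 42.8% of all genes. Which transcript each probe reads was not analysed here.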
